A study of Mus musculus with 4 samples.

Results

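The nuclei described here were those of the thick ascending limb of the kidney tubule, picked out of single-nucleus RNA libraries by the transcripts they held. A nucleus was taken when it had at least 3 UMIs (unique molecular identifiers, each standing for 1 captured transcript) summed over Slc12a1, Umod and Egf. It could hold at most 3 UMIs summed over the proximal tubule genes Slc34a1, Lrp2, Cubn and Slc27a2, and at most 1 UMI summed over Slc12a3 and Aqp2, which mark the distal convoluted tubule and the principal cell. In all, 2214 nuclei met this gate, out of 38481 barcodes with at least 200 genes and at most 10% mitochondrial UMIs. They came from 4 libraries of female mouse kidney, 1 library for each strain and age, with 577 gated nuclei from MRL/lpr mice aged 10 weeks, 587 from C57BL/6 mice aged 10 weeks, 521 from MRL/lpr mice aged 6 weeks and 529 from C57BL/6 mice aged 6 weeks. The series' design text names the renal cortex as the tissue taken. MRL/lpr mice carry the lpr mutation of Fas, a death receptor, and develop lupus-like nephritis. There was no MRL group with intact Fas, so that the mutation, the other strain differences and the disease cannot be told apart. The labels do not say how many animals went into a library. With 1 library per group no test of a difference was made, and the intervals given cover counting error only, not the spread between animals or libraries.

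The thick ascending limb takes up sodium, potassium and chloride from the urine through the cotransporter NKCC2, the product of Slc12a1, and is nearly impermeable to water. Potassium recycled through the apical channel ROMK makes the lumen positive, which drives sodium, calcium and magnesium between the cells through pores made of claudins. Its cells also secrete uromodulin, the most abundant protein of normal urine, and a small group of them at the end of the limb, the macula densa, senses salt at the glomerulus.

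Promoters are shown for 3 genes on which the account below turns, in the RefSeq sequence of the mouse assembly GRCm38.p6, each from 250 bases before the transcription start to 50 after it and read 5′ to 3′ on the gene's strand. Umod (chr7:119479213-119479512, minus strand) is a gene of the gate. Cldn16 (chr16:26462885-26463184, plus strand) and Tmem207 (chr16:26526722-26527021, minus strand) are neighbouring protein-coding genes, and Tmem207 had a higher level in nuclei with Cldn16 than in those with Cldn10. The single capital marks the transcription start, the first transcribed base.
Umod: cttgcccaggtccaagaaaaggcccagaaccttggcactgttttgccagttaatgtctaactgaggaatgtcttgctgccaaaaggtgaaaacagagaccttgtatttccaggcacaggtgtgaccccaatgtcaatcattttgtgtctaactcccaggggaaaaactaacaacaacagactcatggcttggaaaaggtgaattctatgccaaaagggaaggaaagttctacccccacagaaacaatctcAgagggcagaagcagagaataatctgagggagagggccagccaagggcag
Tmem207: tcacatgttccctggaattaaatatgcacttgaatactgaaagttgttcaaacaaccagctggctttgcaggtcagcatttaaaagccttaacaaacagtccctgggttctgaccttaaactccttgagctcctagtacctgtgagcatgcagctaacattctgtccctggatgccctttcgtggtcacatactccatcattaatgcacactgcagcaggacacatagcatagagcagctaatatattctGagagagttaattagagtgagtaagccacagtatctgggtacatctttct
Cldn16: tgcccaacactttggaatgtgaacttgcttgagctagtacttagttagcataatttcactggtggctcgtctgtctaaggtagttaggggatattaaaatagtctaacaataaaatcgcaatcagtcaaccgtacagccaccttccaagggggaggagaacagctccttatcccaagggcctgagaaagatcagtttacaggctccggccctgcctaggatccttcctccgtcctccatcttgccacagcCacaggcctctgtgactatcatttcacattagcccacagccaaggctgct

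The gated nuclei held 259981 UMIs in 10-week MRL/lpr, 297318 in 10-week C57BL/6, 263072 in 6-week MRL/lpr and 254985 in 6-week C57BL/6. Their median depth was 416, 480, 472 and 445 UMIs in the same order, below the 598 to 714 UMIs of all barcodes within the limits. At these totals a gene with 0 UMIs could still have a level of 10.1 to 11.8 CPM, where CPM is the UMIs of a gene divided by all UMIs of the gated nuclei of a library and multiplied by 1000000. Each pair of libraries shared 112 to 143 barcode sequences, of which at most 1 was gated in both. Fas had 10 UMIs in gated nuclei of 10-week MRL/lpr, 5 in 10-week C57BL/6, 12 in 6-week MRL/lpr and 2 in 6-week C57BL/6, and 3′ counts do not locate the lpr mutation, so they do not check the labels. Doublets were not removed, and leaving out those marked by a caller is among the alternatives. Levels of different genes are not set against each other, because 3′ counts are not scaled for how well each transcript is primed.

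The gate was entered mainly through Slc12a1. It was detected in 98.1% of gated nuclei of 10-week MRL/lpr, 99.5% of 10-week C57BL/6, 99.4% of 6-week MRL/lpr and 98.7% of 6-week C57BL/6, and 3 nuclei in all were gated on Egf alone. Umod, detected in 84.6% to 89.1% of gated nuclei, and Egf, detected in 90.1% to 92.2%, accompanied it in most nuclei. These shares were set by the rule and are a description. The median nucleus held 18 to 21 UMIs of the 3 genes, far from the threshold.

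Nuclei just inside the threshold, with exactly 3 UMIs of the gate genes, numbered 6, 6, 11 and 11 in 10-week MRL/lpr, 10-week C57BL/6, 6-week MRL/lpr and 6-week C57BL/6. Those just outside, with 2 UMIs, numbered 37, 26, 23 and 31 in the same libraries. The 11 thick ascending limb markers that the rule did not use summed to 3796 to 6672 CPM just inside, 1695 to 2638 CPM just outside, 8339 to 9538 CPM in all gated nuclei and 1428 to 1723 CPM in all other nuclei.

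Those 11 markers, among them Bsnd, which encodes barttin, the potassium channel genes Kcnj1 and Kcnj16 and the claudin genes Cldn10 and Cldn19, all had at least 50 UMIs in the gated nuclei. Kcnj16 stood at 0.870 to 1.34 times its level in all other nuclei, higher in the gate in both C57BL/6 libraries and lower in both MRL/lpr libraries. The other 10 were higher in gated than in all other nuclei in each of the 4 libraries, with Cldn10 the least so at 1.39 to 3.05 times. The 10 proximal tubule markers summed to 1295 to 1471 CPM in gated nuclei and 14363 to 16303 CPM in all other nuclei, with Slc7a13 at 0 in the gate. The 6 distal convoluted and connecting tubule markers summed to 519 CPM in 10-week MRL/lpr, 747 in 10-week C57BL/6, 475 in 6-week MRL/lpr and 1282 in 6-week C57BL/6. These sums were lower in MRL/lpr at both ages, but single nuclei weighed on them. In 10-week C57BL/6, 1 nucleus held 97 UMIs of the list gene Slc8a1, out of 222 UMIs of the whole list. In 6-week C57BL/6, 1 nucleus held 75 UMIs of Slc8a1, out of 327. The whole list had 135 UMIs in 10-week MRL/lpr and 125 in 6-week MRL/lpr. Without the Slc8a1 UMIs of these nuclei, the 10-week sum would be lower in C57BL/6, while the 6-week sum would stay lower in MRL/lpr. The distal markers reached 5492 to 9978 CPM in all other nuclei. The 8 endothelial markers summed to 388, 545, 392 and 773 CPM in the same order. Thin limb markers stood at 40.4 to 104 CPM with Sptssb and Fst at 0, and lymphocyte markers at 41.8 to 115 CPM with Cd79a and Cd3e at 0. Fibroblast and mural markers stood at 43.7 to 161 CPM in 3 libraries and at 896 CPM in 10-week MRL/lpr. There, 1 nucleus of 6878 UMIs held 209 UMIs of the renin gene Ren1, 7 of Umod, 2 of Slc12a1 and 0 of Egf, and it is 1 of 3 gated nuclei above 2000 UMIs.

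**Figure D1:**
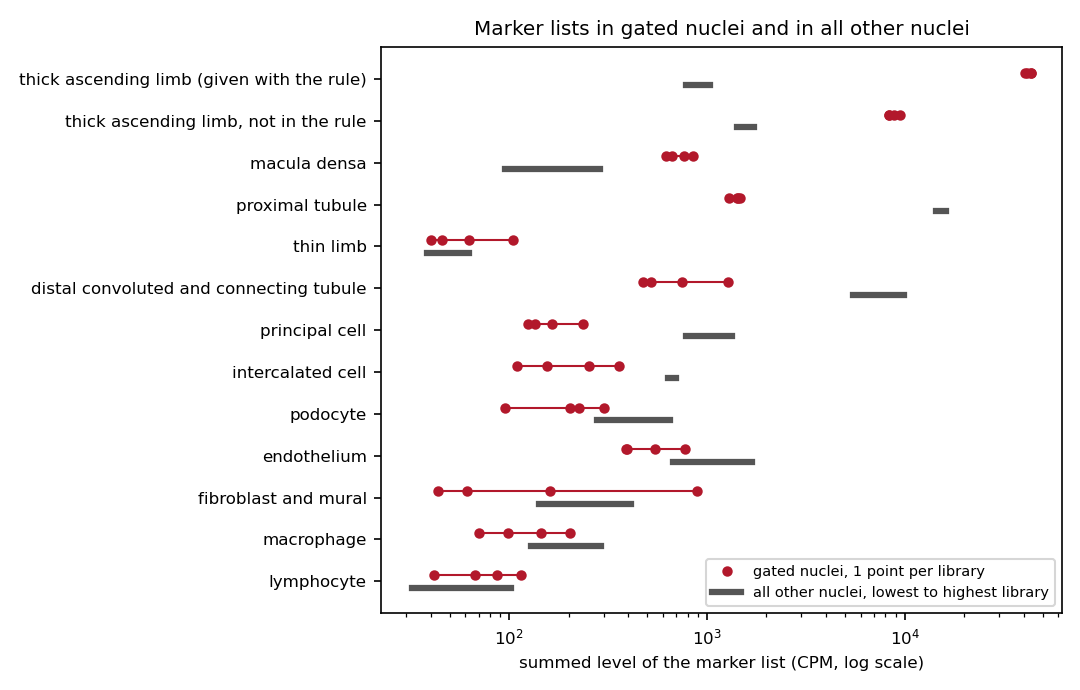
Summed level of each marker list in CPM (log axis) in the gated nuclei (1 point per library) and in all other nuclei (grey bar from the lowest to the highest library). The lists for the thick ascending limb stand above all other nuclei, at 8339 to 9538 CPM for the 11 markers that the rule did not use, while proximal tubule markers stand at 1295 to 1471 CPM against 14363 to 16303 CPM.

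Beside the gate genes, the leading genes of these nuclei included claudins of the divalent cation pathway and the transcription factor genes Irx2 and Sim2. In the gated nuclei 5134 genes reached 50 UMIs when the libraries were added up, and these are the compared genes from here on. Of them 393 (7.65%) were at least 2-fold higher in gated nuclei than in all other nuclei in each of the 4 libraries and 172 (3.35%) were at least 2-fold lower. The rule used this contrast, so these counts are a description. Tmem207 stood at 412 CPM in gated nuclei of 10-week MRL/lpr, 195 in 10-week C57BL/6, 414 in 6-week MRL/lpr and 220 in 6-week C57BL/6, 69.7 to 194 times its level in all other nuclei. Cldn19 (51.2 to 127 times) and Cldn16 (40.6 to 126 times), which encode the claudins of the calcium and magnesium pathway, were among the 15 leading genes. So were the transcription factor genes Irx2 (34.6 to 129 times) and Sim2 (33.0 to 81.7 times). Enox1 (66.2 to 109 times), Egfl6 (44.1 to 448 times), the phospholipase gene Pla1a (39.1 to 111 times), Shd (34.6 to 60.7 times), Pex5l (34.4 to 94.0 times), the kinase gene Rps6ka6 (30.9 to 94.3 times), the neurexin gene Nrxn3 (28.6 to 55.4 times) and Pappa2 (28.5 to 184 times) completed the set with Slc12a1 (69.6 to 117 times) and Umod (45.1 to 54.1 times). Egf was 20.7 to 34.5 times higher in gated nuclei, and Ptger3, the prostaglandin E2 receptor EP3, 24.6 to 47.6 times. Atp1b1, the beta subunit of the sodium pump, which every tubule segment uses, was 3.20 to 3.33 times higher. Esrrg, an orphan nuclear receptor that other tubule segments also express, stood at 1.03 to 1.29 times the level of all other nuclei.

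Gated nuclei made up 6.08% (5.61 to 6.58, exact binomial 95% interval) of nuclei in 10-week MRL/lpr and 6.10% (5.63 to 6.60) in 10-week C57BL/6. They made up 5.56% (5.11 to 6.05) in 6-week MRL/lpr and 5.28% (4.85 to 5.74) in 6-week C57BL/6. At 10 weeks the MRL/lpr share divided by the C57BL/6 share gave 0.996 (0.886 to 1.12), at 6 weeks it gave 1.05 (0.931 to 1.19), and both intervals span equality. The share at 10 weeks over that at 6 weeks was 1.09 (0.969 to 1.23) in MRL/lpr and 1.15 (1.03 to 1.30) in C57BL/6. The gate counts UMIs, and libraries differed in depth. As an alternative, nuclei of fewer than 400 UMIs were left out, each other nucleus was thinned to 400 UMIs, and the gate was applied again. Of the gated nuclei of the main analysis, 336 of 577 in 10-week MRL/lpr and 449 of 587 in 10-week C57BL/6 had at least 400 UMIs. In 6-week MRL/lpr 420 of 521 did, and in 6-week C57BL/6 355 of 529. After thinning, 355 of 7549 nuclei (4.70%) were gated in 10-week MRL/lpr and 477 of 7426 (6.42%) in 10-week C57BL/6. In 6-week MRL/lpr 482 of 8459 (5.70%) were gated, and in 6-week C57BL/6 385 of 7317 (5.26%). The share ratio at 10 weeks then stood at 0.732 (0.636 to 0.842) and that at 6 weeks at 1.08 (0.945 to 1.24). Within MRL/lpr, the thinned share of the 10-week library (4.24% to 5.20%) lay below that of the 6-week library (5.21% to 6.21%), while its unthinned share lay above. The strain comparison at 10 weeks and the age comparison in MRL/lpr thus depended on how depth was treated. The part of the nuclei left out in these changes was not tested apart from the thinning.

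Subsets of the gated nuclei could be told by the claudin genes detected. In rodents, the cells of the thick ascending limb are known to fall into those with the sodium pore claudin-10b and those with the divalent cation pore of claudin-16 and claudin-19. Cldn16 was detected in 11.4% of gated nuclei of 10-week MRL/lpr, 7.33% of 10-week C57BL/6, 13.1% of 6-week MRL/lpr and 10.0% of 6-week C57BL/6, against 0 to 0.163% of proximal tubule nuclei, whose median depth was 767 to 881 UMIs. Cldn10 was detected in 17.3%, 15.0%, 23.8% and 17.4% in the same order. It was also detected in 20.0% to 37.1% of proximal tubule nuclei, a segment that expresses another form of the gene, and the counts do not separate the forms. The ratio of Cldn10 UMIs to UMIs of 6 proximal tubule genes was 0.534 to 0.850 in gated nuclei and 0.0252 to 0.0646 in proximal tubule nuclei, and the part of proximal tubule RNA in the Cldn10 UMIs of the gate was not tested. Ptger3 was detected in 18.7% to 26.1% of gated nuclei and 0.295% to 0.632% of proximal tubule nuclei.

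Both claudin genes together were detected in 30 nuclei, Cldn16 alone in 200 nuclei, Cldn10 alone in 374 and neither in 1610. Cldn10 was detected in 13.0% of nuclei with Cldn16 and 18.9% of gated nuclei without it. By library these shares were 10.6% and 18.2% in 10-week MRL/lpr, 9.30% and 15.4% in 10-week C57BL/6 and 8.82% and 26.0% in 6-week MRL/lpr, and in 6-week C57BL/6 they ran the other way, at 24.5% and 16.6%. At a median of 474.5 UMIs in nuclei with Cldn16 alone and 465.0 in those with Cldn10 alone, a gene not detected in a nucleus may still be expressed there, so these are subsets by detection and not cell types.

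Some genes stood at different levels in the 2 subsets. Of 1240 genes compared between them, 102 were higher in the Cldn16 nuclei in each of the 4 libraries and 106 were lower. These counts include Cldn16 and Cldn10, which define the subsets. A gene can also run 1 way in 4 libraries through counting error alone, and how many would was not estimated, so the counts are a description. The genes named here were picked from the ends of that list or for their role after the values were seen. Tmem207, the neighbour of Cldn16, stood at 576 CPM in Cldn16 nuclei and 21.1 CPM in Cldn10 nuclei pooled over libraries, a log2 ratio of 4.77 (3.34 to 6.69). Kcnj10, a basolateral potassium channel subunit, stood at 279 CPM in Cldn16 nuclei and 15.8 CPM in Cldn10 nuclei, 17.6-fold higher. It was detected in 3 of 404 nuclei with Cldn10 (0.743%) and 112 of 1810 gated nuclei without Cldn10 (6.19%). Tmem52b (16.4-fold), the inositol trisphosphate receptor gene Itpr2 (8.18-fold), Nrxn3 (6.40-fold) and Lrmda (6.29-fold) were higher in Cldn16 nuclei in each library. Pth1r, the receptor for parathyroid hormone, stood at 864 CPM in Cldn16 nuclei and 279 CPM in Cldn10 nuclei, with log2 ratios of 1.73, 1.46, 1.86 and 1.47 in 10-week MRL/lpr, 10-week C57BL/6, 6-week MRL/lpr and 6-week C57BL/6. Casr, the calcium-sensing receptor, stood at 827 CPM in Cldn16 nuclei and 484 CPM in Cldn10 nuclei and was higher in 3 of 4 libraries. Wnk1, a kinase upstream of NKCC2 phosphorylation, was 1.87-fold higher in Cldn16 nuclei.

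On the other side, Ptger3 stood at 353 CPM in Cldn16 nuclei and 1421 CPM in Cldn10 nuclei, 4.03-fold lower, with log2 ratios of -1.47, -2.25, -2.11 and -2.45 in 10-week MRL/lpr, 10-week C57BL/6, 6-week MRL/lpr and 6-week C57BL/6. By detection, 44.1% of nuclei with Cldn10 held Ptger3, against 18.7% of gated nuclei without Cldn10, and the shares with Cldn10 were 41.0%, 43.2%, 44.4% and 47.8% by library. The calcium channel subunit gene Cacnb2 was 4.49-fold lower in Cldn16 nuclei, the teneurin gene Tenm2 2.63-fold, Thsd4 2.30-fold and Esrrg 1.64-fold, each in the 4 libraries. Umod, at 7922 CPM in Cldn16 nuclei and 11569 CPM in Cldn10 nuclei, and Kcnj1, which encodes ROMK, at 483 and 747 CPM in the same order, were lower in Cldn16 nuclei too. Slc12a1 was 1.19-fold lower and Egf 1.07-fold higher in Cldn16 nuclei. Cldn19 and Tmem72 did not go the same way in the 4 libraries. Proximal tubule markers summed to 1458 CPM in Cldn16 nuclei and 1395 CPM in Cldn10 nuclei, and distal tubule markers to 622 and 437 CPM in the same order, and their part in these ratios was not tested.

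A smaller subset held Nos1, the neuronal nitric oxide synthase of the macula densa. It was detected in 15 gated nuclei of 10-week MRL/lpr (2.60%), 14 of 10-week C57BL/6 (2.39%), 9 of 6-week MRL/lpr (1.73%) and 21 of 6-week C57BL/6 (3.97%), and in 0.0263% to 0.105% of proximal tubule nuclei. These 59 nuclei had far more Pappa2, a protease that cleaves insulin-like growth factor binding proteins, at 1666 CPM in Nos1 nuclei and 34.2 CPM in the other gated nuclei (48.7-fold, log2 ratio of 5.61, 4.91 to 6.31). Robo2, a receptor for Slit proteins, was detected in 86.4% of Nos1 nuclei and 11% of the other gated nuclei. The netrin receptor gene Unc5d (23.7-fold), the scaffold gene Ksr2 (21.9-fold), the potassium channel gene Kcnc2 (17-fold), the semaphorin gene Sema6a (15.6-fold) and Tshr, the thyrotropin receptor (9.33-fold), were higher in Nos1 nuclei in each library. Ptgs2, the inducible cyclooxygenase of these cells, had 4 UMIs in Nos1 nuclei and 5 in the other gated nuclei, so that it was near the limit of detection.

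Nos1 nuclei had little of the secreted proteins of the segment. Umod was detected in 10 of 59 Nos1 nuclei (16.9%), against 87.8% of the other gated nuclei, and its level was 14.0-fold lower, with log2 ratios of -5.41, -4.61, -2.98 and -3.53 in 10-week MRL/lpr, 10-week C57BL/6, 6-week MRL/lpr and 6-week C57BL/6. Egf was detected in 20.3% of Nos1 nuclei, against 93.0% of the other gated nuclei, and was 7.90-fold lower. Slc12a1 stood at 18418 CPM in Nos1 nuclei and 17656 CPM in the other gated nuclei. These 3 genes are those of the gate, so a Nos1 nucleus without Umod and Egf could enter only with at least 3 UMIs of Slc12a1. The ankyrin gene Ank3 (5.89-fold), Ppargc1a, a coactivator of mitochondrial biogenesis (5.02-fold), and Casr (4.85-fold) were lower in Nos1 nuclei in each library, while Thsd4 was 3.02-fold higher. Cldn19 had 0 UMIs in Nos1 nuclei. The median depth of Nos1 nuclei was 372.0 UMIs, against 450.0 in all gated nuclei.

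**Figure D2:**
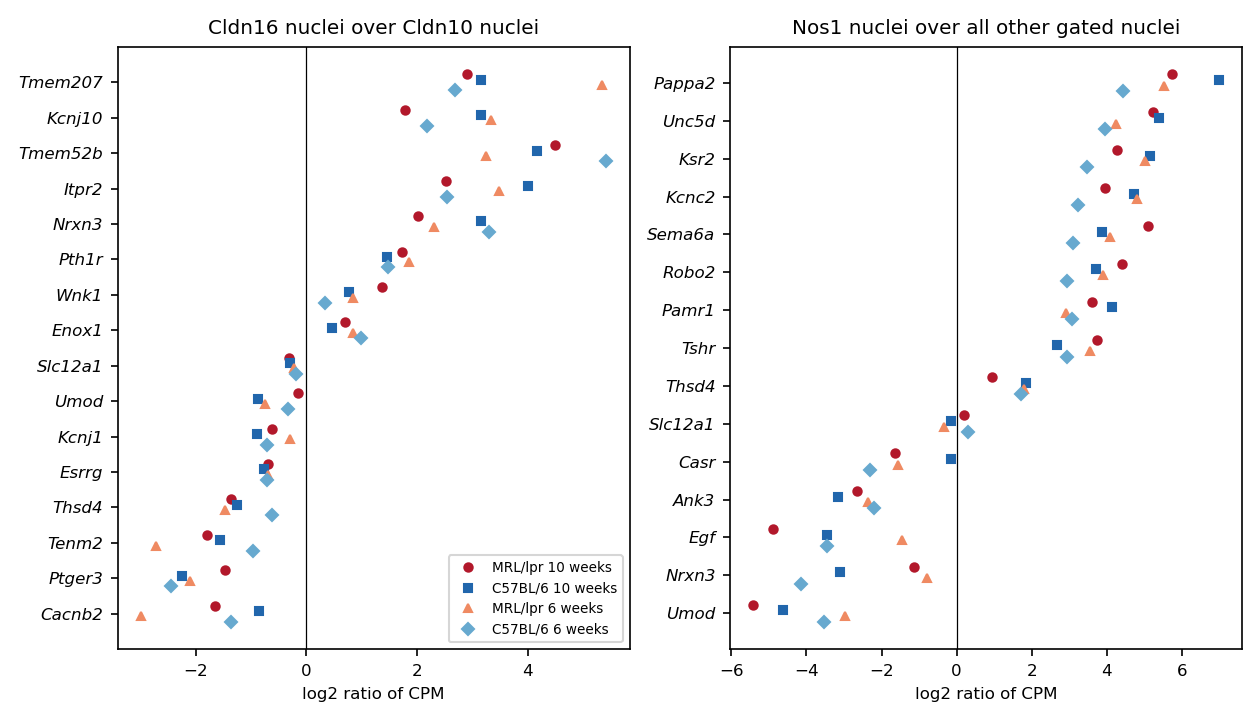
Log2 ratios of CPM in each library, for Cldn16 nuclei over Cldn10 nuclei (left) and Nos1 nuclei over the other gated nuclei (right), where a count of 0 is set at 3 UMIs. Tmem207, Kcnj10, Tmem52b and Pth1r lie right of 0 in the left panel in each library and Ptger3 and Esrrg left of it, and Umod lies between -5.41 and -2.98 in the right panel.

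Between the strains, a limited set of genes of the gated nuclei stood at least 2-fold apart in the same direction at both ages. Of 5134 compared genes, 44 (0.857%) met this with MRL/lpr higher and 61 (1.19%) with MRL/lpr lower. These genes are called higher and lower in MRL/lpr from here on. The ratios at 10 and 6 weeks share no library. At 10 weeks alone 190 genes (3.70%) were 2-fold or more above C57BL/6 in MRL/lpr and 254 (4.95%) below, and at 6 weeks alone 199 (3.88%) were above and 241 (4.69%) below. At least 2-fold differences in opposite directions at the 2 ages were found for 12 genes (0.234%). The median log2 ratio of all compared genes was -0.05 at 10 weeks and -0.05 at 6 weeks. Under TMM scaling the medians were -0.01 and 0.02, and 56 genes were then higher and 49 lower, in place of 44 and 61. Of the called genes, 8 of the 44 higher and 3 of the 61 lower carry predicted or clone names.

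**Figure D3:**
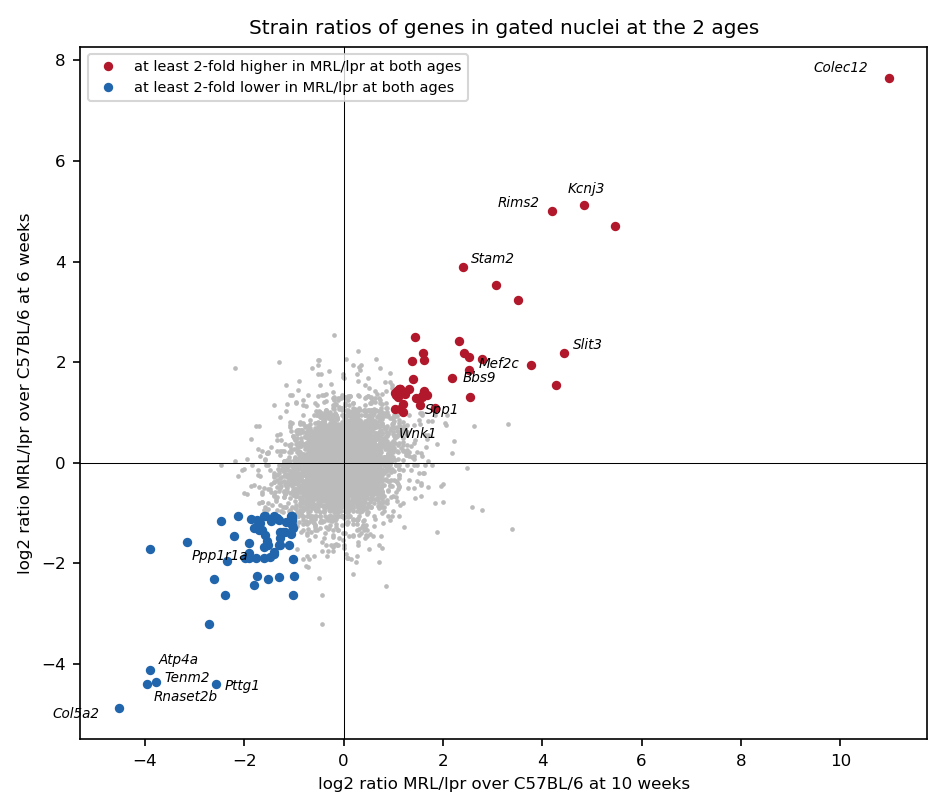
Log2 ratio of MRL/lpr over C57BL/6 in gated nuclei at 10 weeks (x axis) and 6 weeks (y axis) for each compared gene with both ratios; a count of 0 is set at 3 UMIs. Red points are the genes called higher in MRL/lpr, blue points those called lower, and grey points all others, among which Spp1 and Wnk1 are named.

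The genes with the largest ratios of MRL/lpr over C57BL/6 came from many functional classes. Colec12, a scavenger receptor collectin, had 1752 UMIs in 10-week MRL/lpr, 1 in 10-week C57BL/6, 2260 in 6-week MRL/lpr and 11 in 6-week C57BL/6, 199-fold higher in MRL/lpr at 6 weeks (log2 ratio of 7.64, 6.80 to 8.64) and 10.97 (8.49 to 16.27) on the log2 scale at 10 weeks. The strains did not overlap, and the same held in the other gates, where proximal tubule nuclei stood at 4793, 10.3, 6136 and 37.8 CPM in the same order of libraries. Rims2, a presynaptic active zone protein, had 64, 4, 66 and 2 UMIs (log2 ratios of 4.19 at 10 weeks and 5.0 at 6 weeks), and its log2 ratios in distal convoluted tubule nuclei were 4.55 and 4.66. Stam2, an endosomal sorting protein, had 92, 20, 168 and 11 UMIs, and Bbs9, a subunit of the ciliary BBSome, 120, 30, 106 and 32. Both were higher in the 2 MRL/lpr libraries. Slit3, a ligand of Robo receptors (19, 1, 28 and 6 UMIs), Zfp949 (75, 16, 85 and 18), Tpmt, thiopurine methyltransferase (22, 3, 36 and 3), and Cfap54 (50, 10, 31 and 7) went the same way. For Cndp1, a dipeptidase, the UMIs were 20, 2, 29 and 0, and the 6-week MRL/lpr library was at least 9.37-fold higher.

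For some of these genes the other gates gave other values. Kcnj3, a subunit of G protein-gated potassium channels, had 25 UMIs in 10-week MRL/lpr, 1 in 10-week C57BL/6, 36 in 6-week MRL/lpr and 1 in 6-week C57BL/6, log2 ratios of 4.84 (2.23 to 10.20) at 10 weeks and 5.12 (2.55 to 10.47) at 6 weeks. Distal convoluted tubule nuclei held 1, 1, 1 and 0 UMIs of it, and principal cell nuclei 16, 5, 13 and 3. Mef2c, a transcription factor, had 30, 6, 37 and 10 UMIs in gated nuclei, with log2 ratios of 2.52 (1.23 to 4.07) at 10 weeks and 1.84 (0.81 to 3.02) at 6 weeks. In distal convoluted tubule nuclei the log2 ratios of Mef2c were -2.04 and -0.93, and in proximal tubule nuclei -0.95 and 0.98. Mef2c is also expressed by endothelium, whose markers summed to 388, 545, 392 and 773 CPM in gated nuclei in the same order of libraries. The part of endothelial RNA in the ratios of Mef2c was not tested. Gpc5, a glypican, had 24, 2, 40 and 10 UMIs, and its log2 ratios of 3.78 and 1.95 stood beside 1.38 and -0.23 in distal convoluted tubule nuclei. The differences between gates were not tested.

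Among genes lower in MRL/lpr, Tenm2 had many counts. This teneurin of the cell surface stood at 65.4 CPM in 10-week MRL/lpr, 898 in 10-week C57BL/6, 64.6 in 6-week MRL/lpr and 1329 in 6-week C57BL/6, log2 ratios of -3.78 (-4.58 to -3.07) and -4.36 (-5.16 to -3.66). The strains were far apart at both ages, and in nuclei of the other 3 gates Tenm2 did not exceed 9.69 CPM in any library. Within the gate it was the gene noted above as lower in Cldn16 nuclei than in Cldn10 nuclei. Col5a2, a fibrillar collagen chain, had 4 UMIs in 10-week MRL/lpr, 105 in 10-week C57BL/6, 0 in 6-week MRL/lpr and 85 in 6-week C57BL/6, 23.0-fold lower at 10 weeks and at least 29.2-fold lower at 6 weeks. Distal convoluted tubule nuclei showed the same split with 0, 54, 1 and 66 UMIs. Atp4a, the catalytic subunit of the gastric proton pump, had 5, 85, 3 and 51 UMIs in gated nuclei. Its log2 ratios were -3.89 and -4.13 there and -4.76 and -4.04 in proximal tubule nuclei. Rnaset2b had 3, 53, 4 and 82 UMIs, while the near-identical copy Rnaset2a had 171, 66, 181 and 71, and counts may be split between them, so both are uncertain. Pttg1, securin (5, 34, 2 and 41 UMIs), the kinase gene Stk25 (4, 30, 2 and 18), Ccdc28b (5, 30, 5 and 30), Mettl23 (13, 56, 12 and 43) and Vcp, an ATPase of protein quality control (7, 30, 8 and 27), were lower in both MRL/lpr libraries. Mapk1ip1 (5, 29, 8 and 30) and Dlgap1, a postsynaptic scaffold (6, 27, 5 and 18), were lower as well, and their log2 ratios in distal convoluted tubule nuclei were 0.23 and -0.37 for Mapk1ip1 and -0.04 and -0.91 for Dlgap1.

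Of 20 genes of salt reabsorption 17 were compared, with 0 called higher and 0 called lower in MRL/lpr. Of all compared genes only 0.857% were called higher and 1.19% lower, so that 0 calls among 17 genes say little about the list. By any amount, 4 of the 17 stood higher and 4 stood lower in the MRL/lpr library of each age, beside 25.5% higher and 30.3% lower of all compared genes. These shares of all compared genes also belong beside the counts given for the other lists between strains below. Their median log2 ratio was -0.16 at 10 weeks and 0.09 at 6 weeks. Slc12a1 stood at 15978 CPM in 10-week MRL/lpr, 19306 in 10-week C57BL/6, 17946 in 6-week MRL/lpr and 17213 in 6-week C57BL/6. The 4 libraries were close, although Slc12a1 is a gate gene and its level is in part set by the rule. Kcnj1, which encodes ROMK, stood at 488, 646, 631 and 565 CPM in the same order, and Bsnd at 215, 225, 209 and 192 CPM. Kcnj16, a basolateral potassium channel subunit, was lower in both MRL/lpr libraries, with log2 ratios of -0.33 and -0.42. Atp1b1 was nearly level, at 3054, 2913, 3079 and 3185 CPM. Fxyd2, the regulatory gamma subunit of the pump, stood at 4404, 5341, 2836 and 5055 CPM, with log2 ratios of -0.28 (-0.39 to -0.17) at 10 weeks and -0.83 at 6 weeks.

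Wnk1 was higher in MRL/lpr at both ages. It stood at 3223 CPM in 10-week MRL/lpr, 1628 in 10-week C57BL/6, 4041 in 6-week MRL/lpr and 2337 in 6-week C57BL/6, log2 ratios of 0.99 (0.82 to 1.15) and 0.79 (0.64 to 0.94). Both MRL/lpr libraries were above both C57BL/6 libraries. In distal convoluted tubule nuclei, which are known to express a kidney-specific short form of the kinase, Wnk1 stood at 7591, 7129, 6841 and 7833 CPM, log2 ratios of 0.09 and -0.20. In all other nuclei, which pool many cell types, the log2 ratios were -0.59 and -0.60, opposite in sign to those of the gate. The distal convoluted tubule nuclei numbered 568 in 10-week MRL/lpr, 1093 in 10-week C57BL/6, 616 in 6-week MRL/lpr and 1108 in 6-week C57BL/6. The part of these numbers in the ratios of all other nuclei was not tested. The counts do not separate the forms of Wnk1. Distal tubule markers in the gated nuclei summed lower in MRL/lpr at both ages. In 10-week C57BL/6, 1 nucleus held 97 of that sum's 222 UMIs, and without them the 10-week sum would be lower in C57BL/6. The part of distal tubule RNA in the ratio of Wnk1 was not tested. Stk39, the kinase SPAK that WNK kinases activate, stood at 615, 723, 665 and 510 CPM, Wnk4 at 531, 592, 411 and 510 CPM, and Oxsr1 at 6, 5, 5 and 0 UMIs. Of the sodium-proton exchangers, Slc9a3 stood at 419, 293, 426 and 400 CPM and Slc9a2 at 154, 151, 190 and 216 CPM. Slc4a2, an anion exchanger, was higher in MRL/lpr at 192, 84.1, 198 and 125 CPM. Its log2 ratios were 1.19 (0.47 to 1.95) at 10 weeks and 0.66 (-0.01 to 1.34) at 6 weeks, where the interval includes 0. Slc16a7, a monocarboxylate transporter, stood at 789, 918, 772 and 577 CPM, and Kcnma1 and Kcnt1 had at most 12 UMIs in a library.

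**Figure D4:**
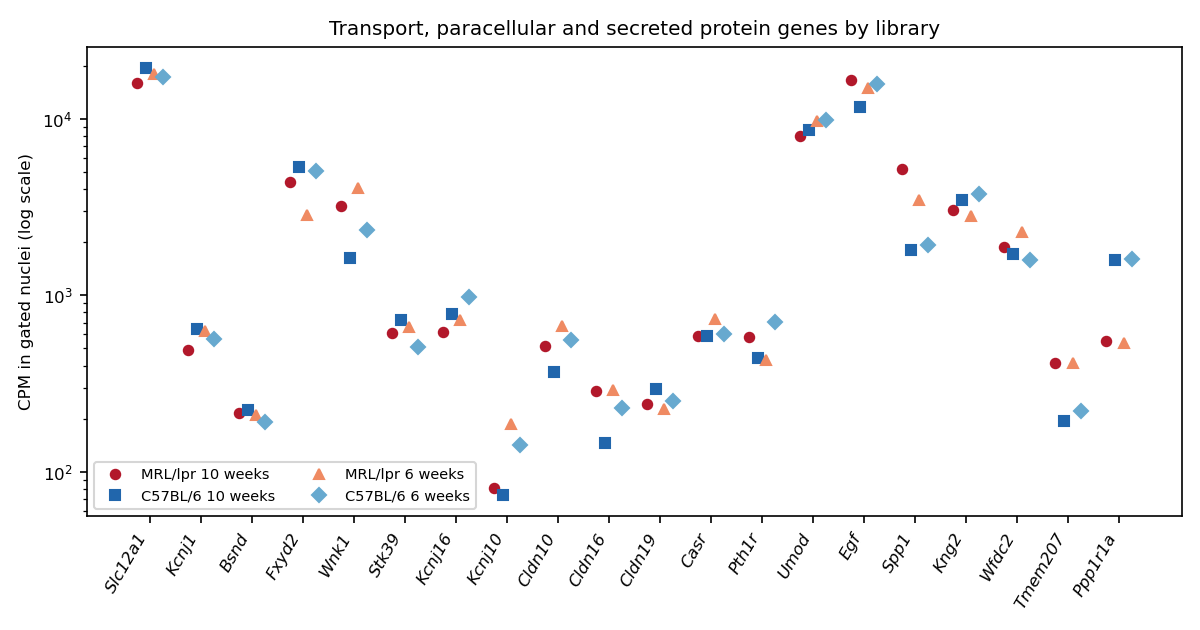
Level in CPM (log axis) of transport, paracellular and secreted protein genes, Tmem207 and Ppp1r1a in the gated nuclei, 1 symbol per library. Spp1 and Wnk1 are higher and Ppp1r1a lower in both MRL/lpr libraries, Slc12a1 lies between 15978 and 19306 CPM, and Kcnj10 is lower at 10 weeks than at 6 weeks in both strains.

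Of 15 paracellular and divalent cation genes 10 were compared, with 2 higher and 2 lower in the MRL/lpr library of each age and a median log2 ratio of 0.15 at 10 weeks and -0.09 at 6 weeks. Cldn16 stood at 288 CPM in 10-week MRL/lpr, 145 in 10-week C57BL/6, 289 in 6-week MRL/lpr and 231 in 6-week C57BL/6, log2 ratios of 1.00 (0.44 to 1.57) and 0.32 (-0.19 to 0.84). At 6 weeks the interval includes 0. Its partner Cldn19 stood at 242, 296, 228 and 251 CPM in the same order, and Cldn10 at 519, 367, 669 and 557 CPM. Casr stood at 589, 589, 734 and 604 CPM. Pth1r went in opposite directions, at 581, 444, 430 and 702 CPM. The magnesium channel gene Trpm7 (365, 373, 361 and 506 CPM), Cnnm2, which takes part in magnesium transport (65.4, 84.1, 110 and 66.7 CPM), Rragd, a GTPase of nutrient sensing (61.5, 53.8, 38.0 and 47.1 CPM), and the tight junction genes Ocln (119, 111, 87.4 and 114 CPM) and Tjp1 (92.3, 74.0, 83.6 and 86.3 CPM) showed no 2-fold difference. Cldn14, a claudin known to block the divalent pathway, had 2, 3, 5 and 0 UMIs. Cldn3, Cldn4, Slc41a1 and Slc41a3 had at most 7 UMIs in a library, and Slc41a3 had 0 in all 4.

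Genes of the Cldn16 nuclei can be set beside this difference. Tmem207, the neighbour of Cldn16, had 107 UMIs in 10-week MRL/lpr, 58 in 10-week C57BL/6, 109 in 6-week MRL/lpr and 56 in 6-week C57BL/6, log2 ratios of 1.08 and 0.92. Tmem52b had 214, 137, 177 and 123 UMIs, with log2 ratios of 0.84 and 0.48. Enox1 had log2 ratios of 0.58 and 0.19, and Itpr2 0.30 and -0.14. Nrxn3, also higher in Cldn16 nuclei, went the other way, with 319, 456, 226 and 545 UMIs and log2 ratios of -0.32 and -1.31. Nuclei with Cldn16 were 11.4% and 7.33% of gated nuclei at 10 weeks and 13.1% and 10.0% at 6 weeks, in MRL/lpr and C57BL/6, and the part of that share in the ratios of Wnk1, Tmem207 and Tmem52b was not tested.

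Of 8 secreted and surface proteins 6 were compared, with 2 higher and 3 lower in the MRL/lpr library of each age and median log2 ratios of 0.00 and -0.04. Umod stood at 7935 CPM in 10-week MRL/lpr, 8641 in 10-week C57BL/6, 9724 in 6-week MRL/lpr and 9785 in 6-week C57BL/6, log2 ratios of -0.12 and -0.01. Egf, the precursor of epidermal growth factor, stood at 16582, 11671, 14916 and 15738 CPM, and 10-week C57BL/6 was below the other 3 libraries. Both are gate genes. Spp1, osteopontin, which is secreted into urine and rises in injured tubules, stood at 5197, 1810, 3455 and 1930 CPM, log2 ratios of 1.52 (1.38 to 1.67) at 10 weeks and 0.84 (0.68 to 1.00) at 6 weeks. Both MRL/lpr libraries were above both C57BL/6 libraries. Spp1 ran the same way in distal convoluted tubule nuclei (log2 ratios of 1.22 and 0.97) and in proximal tubule nuclei (0.75 and 0.76), and in principal cell nuclei the log2 ratios were -0.45 and 0.54. Kng2, a kininogen, stood at 3050, 3451, 2821 and 3726 CPM, Wfdc2 at 1885, 1722, 2296 and 1592 CPM, and Hpn, the protease that releases uromodulin from the membrane, at 196, 256, 133 and 224 CPM. Muc1 had at most 11 UMIs in a library, and Fam3b had 0 in all 4.

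Ppp1r1a, which encodes protein phosphatase inhibitor-1, a target of cAMP signalling, had 143 UMIs in 10-week MRL/lpr, 474 in 10-week C57BL/6, 142 in 6-week MRL/lpr and 407 in 6-week C57BL/6. It was 2.90-fold lower in MRL/lpr at 10 weeks (log2 ratio of -1.54, -1.82 to -1.26) and 2.96-fold lower at 6 weeks (-1.56, -1.85 to -1.29). The 2 ages gave nearly the same levels within each strain. Distal convoluted tubule nuclei, the other gate with a high level, stood at 306, 1136, 354 and 990 CPM in the same order of libraries, log2 ratios of -1.89 and -1.48. The log2 ratios of Ppp1r1a were -0.87 and -0.91 in proximal tubule nuclei and -0.35 and -0.26 in principal cell nuclei. The sum of distal tubule markers in the gated nuclei was also lower in MRL/lpr. In 10-week C57BL/6, 1 nucleus held 97 of that sum's 222 UMIs, and without them the 10-week sum would be lower in C57BL/6. Ppp1r1a stood at 550, 1594, 540 and 1596 CPM in the gated nuclei, above the distal convoluted tubule nuclei of the same libraries. The part of distal tubule RNA in the ratio of Ppp1r1a was not tested.

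**Figure D5:**
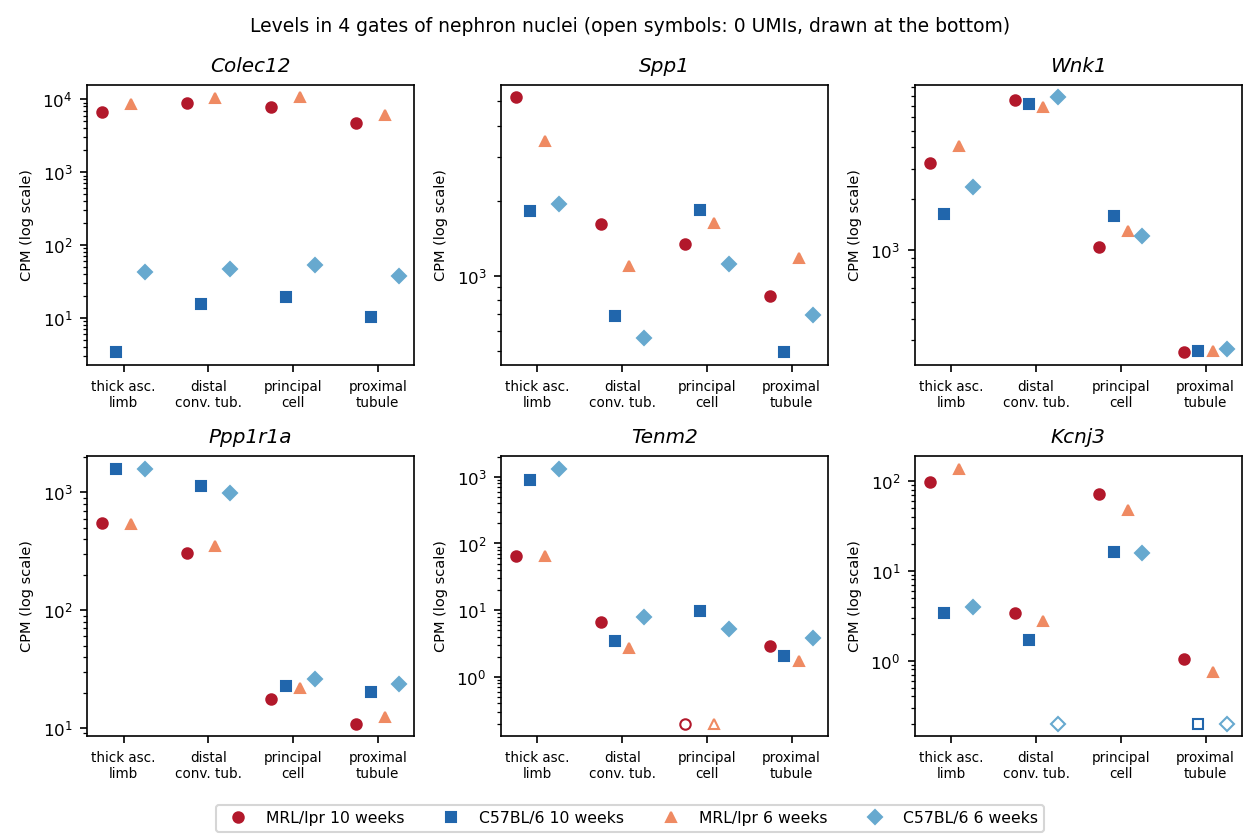
Level in CPM (log axes) of 6 genes in 4 gates of nephron nuclei, 1 symbol per library, with open symbols for 0 UMIs drawn at the bottom. Colec12 separates the strains in each gate. Ppp1r1a is lower in MRL/lpr at both ages in each gate, by less than 2-fold in principal cell and proximal tubule nuclei. Tenm2 stands at 64.6 to 1329 CPM in the thick ascending limb and at most 9.69 CPM in the other gates.

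Of 20 hormone receptor and cAMP genes 16 were compared, with 5 higher and 4 lower in the MRL/lpr library of each age and median log2 ratios of 0.07 and -0.01. Pde4d, a cAMP phosphodiesterase, was higher in MRL/lpr with log2 ratios of 0.72 and 0.71, at 2312 CPM in 10-week MRL/lpr, 1406 in 10-week C57BL/6, 2220 in 6-week MRL/lpr and 1353 in 6-week C57BL/6. Nr3c2, the mineralocorticoid receptor, stood at 704, 474, 574 and 408 CPM, and both MRL/lpr libraries were above both C57BL/6 libraries. Erbb4, a receptor for neuregulins, stood at 9847, 8805, 8313 and 8675 CPM, and Ptger3 at 823, 774, 791 and 526 CPM. Gcgr, the glucagon receptor, was lower in MRL/lpr at 496, 636, 475 and 577 CPM. The vasopressin receptor gene Avpr2 had 6, 3, 7 and 4 UMIs. Of 14 transcription factor genes of the segment 13 were compared, with 4 higher and 2 lower and median log2 ratios of 0.00 and 0.24. Esrrg stood at 2689, 3407, 3227 and 2937 CPM, Tfcp2l1 at 958, 918, 1289 and 1063 CPM, and Ppargc1a at 1146, 1130, 1015 and 1028 CPM.

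The macula densa list was too thin for a comparison of its members between strains. Of 8 genes 3 were compared, 0 of them in the same direction at both ages, with median log2 ratios of 0.59 and -0.51. Nos1 had 21, 16, 9 and 24 UMIs in 10-week MRL/lpr, 10-week C57BL/6, 6-week MRL/lpr and 6-week C57BL/6, Pappa2 23, 17, 17 and 17 and Robo2 148, 155, 124 and 171. Bmp3 and Avpr1a had at most 6 UMIs in a library, Ptgs2 at most 3, and Tmem158 and Mcub at most 2.

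Immune response genes were mostly below the limit for comparison in these nuclei. Of all compared genes, 25.5% were higher and 30.3% lower in the MRL/lpr library of each age by any amount. Counts among so few genes therefore say little about these lists. Of 27 interferon gamma and antigen processing genes 3 were compared, of which 2 were higher in the MRL/lpr library of each age, with median log2 ratios of 0.69 and 0.11. B2m, the light chain of MHC class I, had 126 UMIs in 10-week MRL/lpr, 104 in 10-week C57BL/6, 94 in 6-week MRL/lpr and 60 in 6-week C57BL/6, log2 ratios of 0.47 and 0.60. In 10-week MRL/lpr, 1 nucleus held 24 of the 126, against at most 8 in a nucleus of 10-week C57BL/6. Of 20 type I interferon genes 2 were compared, and both were higher (medians of 0.80 and 0.18), with Ifi27 at 49, 30, 34 and 29 UMIs and Bst2 at 27, 19, 29 and 25. Of 7 MHC class II genes 3 were compared, 1 higher at both ages, with medians of 0.61 and -0.46, and Cd74, the invariant chain, had 69, 65, 35 and 62 UMIs. Macrophage markers summed to 204, 70.6, 98.8 and 145 CPM in the same libraries, and their part in these levels was not tested. Of 12 complement genes 3 were compared, 2 of them lower at both ages (medians of -0.01 and -1.05). Of 19 chemokine and NF-kB genes 5 were compared, with 3 higher and 0 lower and medians of 0.40 and 0.11.

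Of 20 tubular injury genes 6 were compared, of which 3 were higher in the MRL/lpr library of each age and 0 lower, with median log2 ratios of 0.38 and 0.25. Of all compared genes 25.5% were higher and 30.3% lower by any amount, so that counts among 6 genes say little about the list. Beside Spp1, Igfbp7 was higher by small amounts (log2 ratios of 0.37 and 0.08), and 1 nucleus held 35 of its 300 UMIs in 10-week MRL/lpr. Clu, clusterin, was high in 1 library, with 44 UMIs in 10-week MRL/lpr, 9 in 10-week C57BL/6, 25 in 6-week MRL/lpr and 26 in 6-week C57BL/6. Havcr1 and Lcn2, the classic injury markers of other segments, did not reach the limit for comparison.

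The chaperone list had median ratios of opposite sign at the 2 ages. Of 21 unfolded protein and heat shock genes 17 were compared, with 1 higher and 5 lower in the MRL/lpr library of each age, and median log2 ratios of -0.68 at 10 weeks and 0.21 at 6 weeks. Hspa5, the chaperone BiP, had 49 UMIs in 10-week MRL/lpr, 141 in 10-week C57BL/6, 64 in 6-week MRL/lpr and 42 in 6-week C57BL/6. Hsp90b1 had 92, 204, 137 and 86 UMIs, Calr, calreticulin, 61, 137, 81 and 73, and Sdf2l1, a partner of BiP, 10, 52, 53 and 14. The library of 10-week C57BL/6 was the highest for Hspa5, Hsp90b1 and Calr. Hspa8, a cytosolic chaperone, was called lower in MRL/lpr, with 20, 52, 22 and 55 UMIs. Of 19 early response genes 5 were compared, with 1 higher and 3 lower and medians of -0.38 and -0.27. Gadd45g had 44, 221, 131 and 153 UMIs, and 10-week MRL/lpr was the lowest. Of 18 clock genes 6 were compared, with 1 higher and 2 lower and medians of -0.88 and -0.29, and Per1 was called lower with 7, 26, 8 and 19 UMIs. The time of day at which kidneys were taken is not given in the sources used here.

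Metabolic lists had median log2 ratios between -0.57 and 0.06 between the strains, beside -0.05 at each age for all compared genes. By any amount, 25.5% of all compared genes were higher and 30.3% lower in the MRL/lpr library of each age. Of 36 nuclear genes of the respiratory chain, which were all compared, 6 stood higher and 17 stood lower in the MRL/lpr library of each age, with median log2 ratios of -0.17 and -0.10. Cox5b, a subunit of cytochrome c oxidase, was the 1 of them called lower, with 50, 128, 61 and 133 UMIs in 10-week MRL/lpr, 10-week C57BL/6, 6-week MRL/lpr and 6-week C57BL/6. Of 13 mitochondrially encoded genes 8 were compared, with 0 higher and 5 lower and medians of -0.57 and -0.23. Of these, mt-Nd2, a subunit of complex I, was called lower in MRL/lpr, with 4, 20, 9 and 18 UMIs and log2 ratios of -2.13 (-4.14 to -0.55) at 10 weeks and -1.05 at 6 weeks, where the interval (-2.38 to 0.18) includes 0. Transcripts of the mitochondrion come with nuclei as carry-over from the cytoplasm, and the median mitochondrial share of gated nuclei was 0 in both MRL/lpr libraries, 0.141% in 10-week C57BL/6 and 0.146% in 6-week C57BL/6. Of 19 glycolysis genes 15 were compared (1 higher and 7 lower, medians of -0.13 and -0.09), of 20 fatty acid oxidation genes 13 (2 higher and 3 lower, medians of -0.05 and -0.12), of 9 osmolyte genes 6 (0 higher and 4 lower, medians of -0.45 and -0.26) and of 16 metallothionein, ferritin and antioxidant genes 11 (3 higher and 5 lower, medians of 0.06 and -0.13). Sgk1, a kinase induced by aldosterone and by osmolality, belonged to the osmolyte list and was called lower in MRL/lpr, with 3, 19, 12 and 26 UMIs. No compared member of any of these lists was called higher in MRL/lpr, beside only 0.857% of all compared genes.

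Fewer genes met the same criterion with age than with strain. At least 2-fold higher at 10 weeks than at 6 weeks in both strains were 3 genes (0.0584%), and at least 2-fold lower were 10 (0.195%), while 19 (0.370%) stood at least 2-fold apart in opposite directions in the 2 strains. The age ratios of the 2 strains share no library. In MRL/lpr alone 148 genes (2.88%) were 2-fold or more higher at 10 weeks and 149 (2.90%) lower, and in C57BL/6 alone 127 (2.47%) and 138 (2.69%). The 3 higher genes were Flot2, a flotillin of membrane rafts (23 UMIs in 10-week MRL/lpr, 10 in 6-week MRL/lpr, 24 in 10-week C57BL/6 and 10 in 6-week C57BL/6), Lpar6, a lysophosphatidic acid receptor (10, 5, 26 and 9), and Hoxc8, a homeobox gene (13, 6, 28 and 12). Each rests on few UMIs. Igfbp3, an insulin-like growth factor binding protein, had 6 UMIs in 10-week MRL/lpr, 25 in 6-week MRL/lpr, 12 in 10-week C57BL/6 and 31 in 6-week C57BL/6, log2 ratios of 10 over 6 weeks of -2.04 (-3.62 to -0.72) and -1.59 (-2.69 to -0.59). Endothelial cells also express Igfbp3, and the endothelial markers of the gate stood at 388, 392, 545 and 773 CPM in that order. The transcription factor genes Zfx (11, 25, 11 and 22 UMIs) and Zeb2 (6, 17, 13 and 24), the kinase gene Wee1 (6, 15, 10 and 19), Bclaf3 (9, 24, 9 and 19), Dpf2 (9, 19, 10 and 20), Fbxo28 (10, 21, 12 and 21) and Keg1 (18, 37, 9 and 27) were lower at 10 weeks, as were 2 genes with predicted or clone names.

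Among genes of the segment, Kcnj10 came close to the 2-fold limit with age. It had 21 UMIs in 10-week MRL/lpr, 49 in 6-week MRL/lpr, 22 in 10-week C57BL/6 and 36 in 6-week C57BL/6, log2 ratios of -1.21 (-2.02 to -0.44) in MRL/lpr and -0.93 (-1.77 to -0.13) in C57BL/6. It was detected in 3.29% of gated nuclei of 10-week MRL/lpr against 8.45% of 6-week MRL/lpr, and in 3.41% of 10-week C57BL/6 against 6.05% of 6-week C57BL/6. Kcnj10 was lower at 10 weeks in both strains. Of the 36 nuclear genes of the respiratory chain, 1 was higher and 24 were lower at 10 weeks in both strains by any amount, beside 25.8% higher and 25.7% lower of all compared genes. Their median log2 ratio of 10 over 6 weeks was -0.40 in MRL/lpr and -0.27 in C57BL/6, beside -0.02 and 0.00 for all compared genes. Cox6c, a subunit of cytochrome c oxidase, stood at 423 CPM in 10-week MRL/lpr, 616 in 6-week MRL/lpr, 579 in 10-week C57BL/6 and 667 in 6-week C57BL/6, and Atp5b, of ATP synthase, at 358, 475, 414 and 490 CPM. Of 17 salt transport genes 5 were higher and 8 lower at 10 weeks in each strain, and the MRL/lpr median was -0.11 and the C57BL/6 median 0.08.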

How the data were processed

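Per the labels' protocols, kidney nuclei were purified by iodixanol density centrifugation and sequenced with a droplet 3′ kit. The authors deposited 1 matrix for each library, holding the UMI count of every gene in every barcode, from Cell Ranger (5.0.0 per the file headers, 3.1.0 per the submitters' processing notes). For the genome build, barcode calling and intronic counting, the answer is not given in the sources used here. Of 25636 gene IDs, 25585 were in the GENCODE M21 annotation, and 27 symbols are shared by 2 or more IDs, which were kept apart.

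From these counts, UMIs were summed over gated nuclei of a library and divided by their total (CPM). Log2 ratios have no prior count. A count of 0 was set at 3 UMIs, and no ratio was made where both counts were at most 3. Genes that reached 50 UMIs when the 4 libraries were added up were compared, and a gene was called when it stood at least 2-fold apart in the same direction in both contrasts that share no library. Intervals are exact binomial (95%), conditional on the sum for ratios, and cover counting error only. The calculation was tested on simulated data. No doublets were removed in the main analysis. Scrublet in scanpy 1.11.5 marked 2865 barcodes, 131 of them gated. Its automatic threshold marked 0 in 6-week MRL/lpr, so there the highest scores at the expected rate were marked. The members, gene lists and subsets were chosen with earlier results of these data known. Named genes were the 12 higher and 12 lower between strains and the 8 higher and 8 lower with age with the largest smaller log2 ratio, leaving out predicted and clone names, the 15 leading genes over all other nuclei, the members of the transport, paracellular, secreted and macula densa lists, and of every other list the 3 members with most UMIs and those called. Some genes that met this rule are not reported here. Subset genes, Tmem52b, Enox1, Itpr2, Sdf2l1, Rnaset2a, Avpr2, Fas, Havcr1, Lcn2, Nr3c2 and Gcgr were picked outside this rule, after values were seen. Alternatives covered the gate, doublets, depth, scaling (edgeR 4.0.16 TMM in R 4.3.3), the UMI minimum, the weight of each nucleus and a prior of 0.5 UMI. Python 3.11.15, numpy 2.4.6, scipy 1.17.1, pandas 2.3.3 and matplotlib 3.10.9 were used.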

Additional observations from a re-analysis of the deposited data

Results flagged for a closer look

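6 genes of the lists stood in opposite directions between the strains at the 2 ages, with counting intervals that exclude 0 at both ages. These intervals treat UMIs as independent, although 1 nucleus can hold several, so they do not cover the spread between nuclei. The differences between the ages were not tested, and with 1 library per group they rest on single libraries. Egf had a log2 ratio of MRL/lpr over C57BL/6 of 0.51 at 10 weeks and -0.08 at 6 weeks, and Slc12a1 of -0.27 and 0.06. Both are genes of the gate. Hsp90b1, a chaperone of the endoplasmic reticulum, had -0.96 at 10 weeks and 0.63 at 6 weeks. Pth1r, the parathyroid hormone receptor, had 0.39 and -0.71. Itgb6, an integrin subunit induced in injured epithelium, had 0.40 and -0.91. Slc4a9, an anion exchanger of intercalated cells, had 0.85 (0.01 to 1.71) and -2.46, on 33 UMIs in 10-week MRL/lpr, 21 in 10-week C57BL/6, 9 in 6-week MRL/lpr and 48 in 6-week C57BL/6. The most in 1 nucleus were 8, 7, 1 and 13 of these UMIs in the same order. Intercalated cell markers as a list, of which Slc4a9 is a member, summed in the gated nuclei to 254, 155, 110 and 357 CPM in the same libraries, and their part in the ratio was not tested.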

How the results depend on the processing

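The share ratio of gated nuclei at 10 weeks was 0.996. It was 0.732 when nuclei under 400 UMIs were left out and the gate was applied to the others thinned to 400 UMIs. The count of genes higher in MRL/lpr at both ages was 44 with a minimum of 50 UMIs, 133 with 20, 15 with 100 and 191 with none, and that of genes lower was 61, 217, 24 and 316 in the same order. With age, the 3 genes higher at 10 weeks became 55, 0 and 107 under minimums of 20, 100 and none, 1 under a common UMI minimum per nucleus of 308 and 1 under a prior of 0.5 UMI. The 10 lower genes became 55, 1 and 97 under the 3 minimums, 5 with a gate sum of at least 5 UMIs, 6 without Scrublet doublets and 16 with every nucleus of equal weight. TMM and median-of-ratios scaling each gave 56 higher and 49 lower between strains (53.3% higher), against 44 and 61 (41.9%) in the main analysis. Leaving out gated nuclei above 2000 UMIs, chosen after seeing the data, gave 46 and 63. No list median or gene ratio that was at least 2-fold in the main analysis changed sign, and sign changes of smaller values were not counted. For 40 list medians, 555 of 560 values over the settings stayed between 2 limits of the main analysis. These were the median lower and the median upper counting limit of the list's single genes. They are not an interval of the list median, so this count does not measure how stable the medians are. For 108 gene ratios, 1456 of 1460 values stayed within the counting interval of that gene in the main analysis. Of 24 shares of gated nuclei with a UMI of a gene, 8 left their interval when nuclei under 400 UMIs were left out and the others thinned. Egf at 6 weeks stood at -0.01 and Slc12a1 at 0.13 under both scalings. Depth limits detection: a gene with 0 UMIs could be at 10.1 to 11.8 CPM. The strains were set side by side within each age, and no fit with age as a block was made. The labels give no replicate numbers that pair libraries.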

Other observations

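The gated nuclei of 6-week C57BL/6 had the highest sum of distal convoluted and connecting tubule markers, 1282 CPM against 475 to 747 CPM in the other libraries, and the highest sums of intercalated cell (357 CPM) and endothelial markers (773 CPM). Of the 327 UMIs behind the distal sum of that library, 1 nucleus held 75 as Slc8a1. The nucleus of 6878 UMIs in 10-week MRL/lpr held 91 UMIs of Actb beside the 209 of Ren1. Cldn16 nuclei were also set over Cldn10 nuclei for Actb, which had a log2 ratio of -4.87 in 10-week MRL/lpr and of -0.16, -0.06 and -0.41 in 10-week C57BL/6, 6-week MRL/lpr and 6-week C57BL/6. The Cldn10 nuclei held 101, 14, 7 and 18 UMIs of Actb in that order, and the Cldn16 nuclei 2, 7, 4 and 7. The part of the nucleus of 6878 UMIs in the ratio of 10-week MRL/lpr was not tested.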
